A study of Mus musculus with 26 samples.

Results

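Ubiquitin is a small protein that is attached to other proteins by a relay of 3 enzyme classes, called E1, E2 and E3. The E3 ligases choose the target, and most of them carry a RING finger that brings the loaded E2 enzyme next to it; most genes with Rnf symbols encode such ligases. Ubiquitin-specific proteases, the products of most Usp genes, take the ubiquitin off again. In thymocytes and T cells both kinds of enzyme set the lifetime and the signalling of antigen receptor components, cell cycle inhibitors, histones and membrane proteins.

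All genes of the deposited table whose symbol starts with Rnf or Usp followed by a digit are described here, with 1 gene left out. These were 103 of 13765 listed genes, 58 Rnf and 45 Usp genes. The symbol alone chose them, so a few are known for other functions, among them Usp39 and Usp6nl. They were measured in double positive (DP) cells, the thymocyte stage with both CD4 and CD8 on its surface, from the aortic arch, the mediastinal adipose tissue and the thymus of C57BL/6J mice, all female and 8 weeks old. Each tissue had 4 pools of 5 mice. There were 9 libraries from arch, 8 from adipose tissue and 9 from thymus, already joined to 1 value per gene and pool. Cells had been sorted as viable, CD4+, CD8b+ and T-cell receptor negative. The pool was the replicate, so n = 4 per tissue throughout, and 4 values listed for a tissue run from pool 1 to pool 4. Arch and adipose tissue were enzymatically digested and no digestion is stated for thymus, so the effects of digestion and of tissue cannot be told apart in any comparison with thymus.

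The deposited unit was a normalised read count, and 11577253 to 34599519 reads per pool lay behind it. All 10 marker genes of the DP stage had reads in all 3 tissues, and their sum was lower outside the thymus, with 6934 to 8109 in the arch pools and 5552 to 11556 in the adipose pools, against 17663 to 20675 in the thymus pools, all in CPM, the value scaled to equal pool totals. The highest sums for other cells were in 3 pools. Arch pool 4 held 3764 CPM of fibroblast markers, arch pool 2 held 1850 CPM of smooth muscle and 902 CPM of macrophage markers, and B cell markers came to 1232 CPM in adipose pool 1. That adipose pool also held 250 CPM of macrophage, 230 CPM of endothelial, 164 CPM of adipocyte and 115 CPM of fibroblast markers. Thymus pools had at most 107 CPM of endothelial and 0.0742 CPM of adipocyte markers. Cdh5, Kdr, Tie1 and Emcn had reads in adipose pool 1 alone, while the endothelial marker Pecam1 had reads in every pool. The sums in thymus pools were at most 3.83 CPM for fibroblast, 3.31 CPM for smooth muscle, 9.998 CPM for macrophage and 214 CPM for B cell markers; arch pool 1, with 66.6 CPM of smooth muscle and 22.7 CPM of fibroblast markers, and arch pool 3, with 14.1 CPM of smooth muscle markers, exceeded these too. No read in any thymus pool was found for 4 of 8 fibroblast, 4 of 6 smooth muscle and 5 of 7 macrophage markers, among them Pdgfra, Myh11 and C1qa. Others had thymus reads, as Col1a1, Acta2 and Cd68 in thymus pool 2, at 74.8, 40.4 and 199 normalised reads. Most outside pools had no read for these 3 genes either: Pdgfra had reads only in arch pool 4, Myh11 in arch pool 2, and C1qa in arch pool 2 and adipose pool 1. In bulk samples such as these, fewer cells of a type and less RNA per cell cannot be told apart.

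Reads were found in all 12 pools for 64 of the 103 genes. The table was tested with limma on log2(normalised read count + 20) for the 9106 genes with at least 100 in at least 4 pools, and 92 of the 103 passed that filter, 53 Rnf and 39 Usp genes. The 11 genes below it were Rnf135, Rnf150, Rnf24, Rnf39, Rnf43, Usp27x, Usp35, Usp43, Usp46, Usp54 and Usp6nl. Among them Rnf24 reached 1478 in arch pool 2 and at most 176 in every other pool. Usp46 had reads in thymus pools 1, 2 and 3 only, at 0.566, 144 and 258, and none in arch or adipose tissue. Of the values of the 92 tested genes 6.70% were 0, against 7.12% for all tested genes. Together the 103 genes took 0.736% to 0.920% of the normalised total of an arch pool and 0.882% to 1.06% of an adipose pool, against 0.732% to 0.819% of a thymus pool. The adipose pools lay above the thymus pools, but 1 gene set that apart: without Rnf145 the shares were 0.755% to 0.885% and 0.719% to 0.789% and overlapped.

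A gene is called when its limma p, adjusted with Benjamini-Hochberg over all 9106 genes, was under 0.05; calls by edgeR or DESeq2 on the recovered reads are named as such. In arch against thymus 6 of the 92 genes were called (6.52%), against 6.57% of all tested genes. Rnf145, Rnf157, Rnf138 and Usp9x were higher in arch, 4.35% against 3.99% of all tested genes, and Rnf123 and Rnf5 were lower, 2.17% against 2.58%. In adipose tissue against thymus 5 were called (5.43%), against 2.84% of all tested genes. Rnf145, Rnf157, Rnf138 and Rnf19b were higher in adipose tissue, 4.35% against 2.17% of all tested genes, and Rnf5 was lower, 1.09% against 0.67%. Both comparisons use the same 4 thymus pools, so their calls are not independent. In arch against adipose tissue none was called by limma, against 0.176% of all tested genes (0.0988% higher and 0.0769% lower), and 8 of the 92 (8.7%) had an unadjusted p under 0.05, against 10.5% of all tested genes; edgeR and DESeq2 on the recovered reads called 0 as well. The share called in arch against thymus was thus close to that of genes at large, and in adipose tissue against thymus it rested on 5 genes. Among the called genes, Rnf19b would not have passed the filter without its adipose pools, nor Rnf123 without its thymus pools. Without thymus pool 2 the count in arch came to 3 (3.26%, against 4.72% of all tested genes). That in adipose tissue came to 3 without thymus pool 1, 2 or 3 or adipose pool 3 (3.26%, against 2.01% to 2.35%). It came to 2 without adipose pool 4 (2.17%, against 1.86%). Both counts were highest without arch pool 4, at 7 in arch (7.61%, against 5.92%) and 6 in adipose tissue (6.52%, against 3.48%). Without arch pools 2 and 4 and adipose pool 1, a choice made after seeing the data, the counts were 7 (7.61%), 6 (6.52%) and 0 in the 3 comparisons, against 3.79%, 2.91% and 0% of all tested genes. DESeq2 called 10 (10.9%) in arch and 8 (8.7%) in adipose tissue, against 11.1% and 5.92% of all tested genes, and edgeR called 4 in each (4.35%), against 4.01% and 2.33%. The genes that these tools called and limma did not were Usp44, Rnf122, Rnf19b and Rnf166 in arch and Usp44, Rnf122 and Usp9x in adipose tissue, with edgeR adding Usp44 in arch alone.

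**Figure D1:**
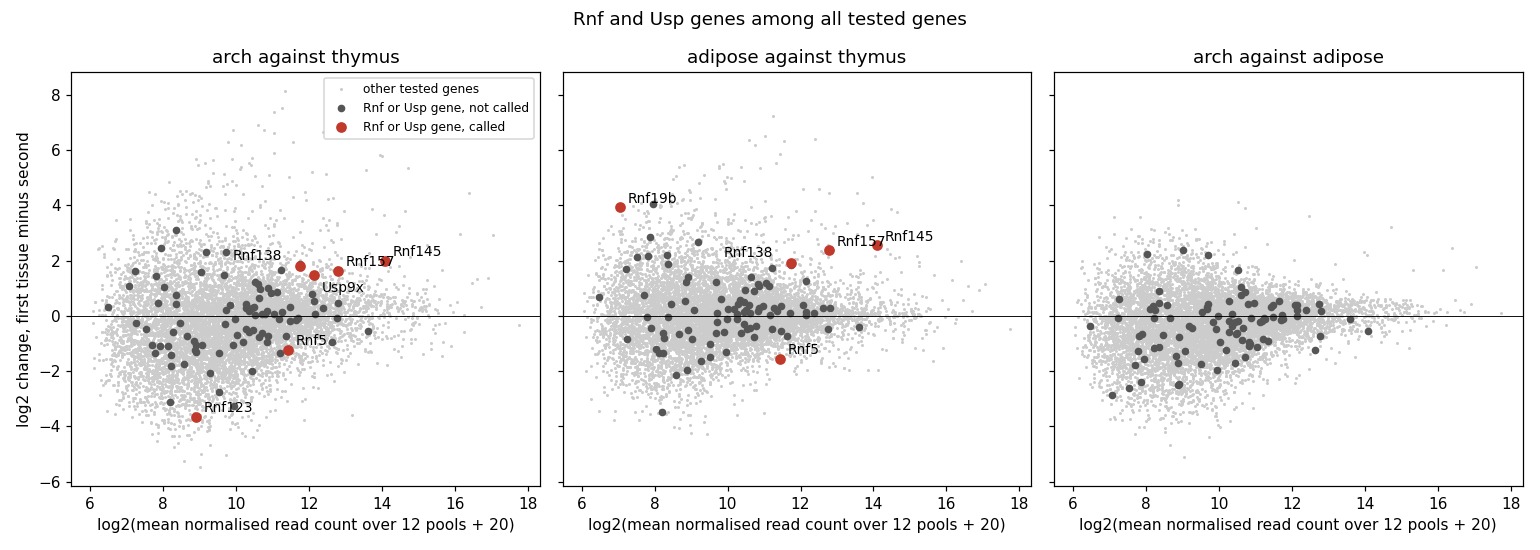
Log2 change of each tested gene against its mean normalised read count over 12 pools (both on a log2 scale with 20 added), for arch against thymus, adipose tissue against thymus and arch against adipose tissue; grey dots are other genes, dark dots Rnf and Usp genes, red dots those called. The 6, 5 and 0 called genes lie within the cloud of all 9106 tested genes.

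Among membrane-anchored enzymes Rnf145 was called higher and Rnf5 lower outside the thymus. Rnf145 encodes a ligase of the endoplasmic reticulum membrane that is known from sterol control, where it marks the cholesterol synthesis enzyme HMG-CoA reductase for degradation. Its normalised read count was 23919, 13211, 20137 and 19523 in the arch pools and 21066, 26353, 29306 and 35118 in the adipose pools, against 5282, 2658, 5130.0 and 6588 in the thymus pools. Every pool from outside the thymus was above every thymus pool, and arch pool 2 was the lowest of the 8. The log2 change was 2.00 ± 0.26 (SE) in arch against thymus, with a limma adjusted p of 7.15e-05. It was 2.55 ± 0.26 in adipose tissue against thymus, with a limma adjusted p of 5.59e-06. Both calls held in all 12 fits without 1 pool, where the change ranged over 1.73 to 2.17 and 2.28 to 2.72. Without arch pools 2 and 4 and adipose pool 1, where other cells' markers were highest, the changes were 2.23 and 2.68. Per kilobase of exon, the scale on which genes can be compared, Rnf145 stood in CPM at 114 ± 28.0 for arch and 177 ± 36.0 for adipose tissue, against 32.5 ± 11.4 for thymus (SD, n = 4 each).

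Rnf5, which was lower outside the thymus, encodes another ligase of the endoplasmic reticulum membrane and takes part in the degradation of misfolded proteins there. It had 2174, 2259.8, 2617 and 1037 normalised reads in the arch pools and 1976, 1329, 1697 and 1195 in the adipose pools, against 4331, 5498, 5522 and 3190.0 in the thymus pools. No pool from outside the thymus reached the lowest thymus pool. The log2 change was −1.23 ± 0.36 in arch against thymus (limma adjusted p = 0.0488) and −1.56 ± 0.36 in adipose tissue against thymus (limma adjusted p = 0.0210). The arch call was lost in 11 of 12 fits without 1 pool, with adjusted p of 0.0501 (without adipose pool 2) to 0.123 (without thymus pool 2), and held at 0.0444 without arch pool 3. It was also lost in 7 of 12 other alternatives (adjusted p 0.0520 to 0.295), among them edgeR and the fit without arch pools 2 and 4 and adipose pool 1 (−0.92, adjusted p = 0.175). The adipose call was lost without thymus pool 1, 2 or 3 or adipose pool 4 (adjusted p 0.0537, 0.0788, 0.0694 and 0.0797). Exons of Rnf5 (chromosome 17, 34601091 to 34603690 on the minus strand, GRCm38) overlap the opposite-strand gene Gm20463 over 24.7% of their length, and 28.5% of the 50-base windows recur in other genes, so its reads are uncertain.

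The other genes of this group of 18, of which 16 were tested, were not called in any comparison. Called genes made up 12.5% of the 16 in arch and in adipose tissue, each against thymus, beside 6.57% and 2.84% of all tested genes. The group's median log2 change was −0.58 in arch against thymus, beside −0.20 for all tested genes, and 0.13 in adipose tissue against thymus, beside −0.01. Rnf167, a ligase of endosome and lysosome membranes, had the highest mean level per length over the 12 pools, at 135 ± 22.5 CPM per kilobase in arch and 165 ± 59.2 in adipose tissue, against 217 ± 35.7 in thymus. A few further genes of the group were chosen after their values were seen. Rnf139, the sterol-related ligase nearest in kind to Rnf145, averaged 1303 ± 1135 normalised reads in arch and 2352 ± 820.1 in adipose tissue, against 1335 ± 562 in thymus. Rnf185, a partner of Rnf5 in the same degradation route, averaged 1591 ± 1077 in arch and 1203 ± 320.1 in adipose tissue, against 858 ± 128 in thymus. Neither was called, and in both the arch pools spanned the values of thymus. Rnf122, called by DESeq2 alone, had 22.8, 2216, 361 and 148 in the arch pools and 593, 20.3, 181 and 78.6 in the adipose pools, against 10.8, 2.99, 29.1 and 11.5 in the thymus pools. Both outside tissues had 1 pool within the thymus range, and arch pool 2, where smooth muscle and macrophage markers were highest, held the top value; limma gave 3.11 ± 1.21 in arch (adjusted p = 0.131) and 2.20 ± 1.21 in adipose tissue (adjusted p = 0.486). Usp30, the protease of the outer mitochondrial membrane, had no read in arch pools 1 and 4 and 158 and 61.4 in arch pools 2 and 3, against 614, 392.1, 154 and 149 in the adipose pools. Arch pool 2 lay within the adipose range, and the difference of −2.59 ± 1.17 had a limma adjusted p of 0.463. Without its adipose pools neither Usp30 nor Rnf122 would have passed the filter of at least 100 in at least 4 pools.

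**Figure D2:**
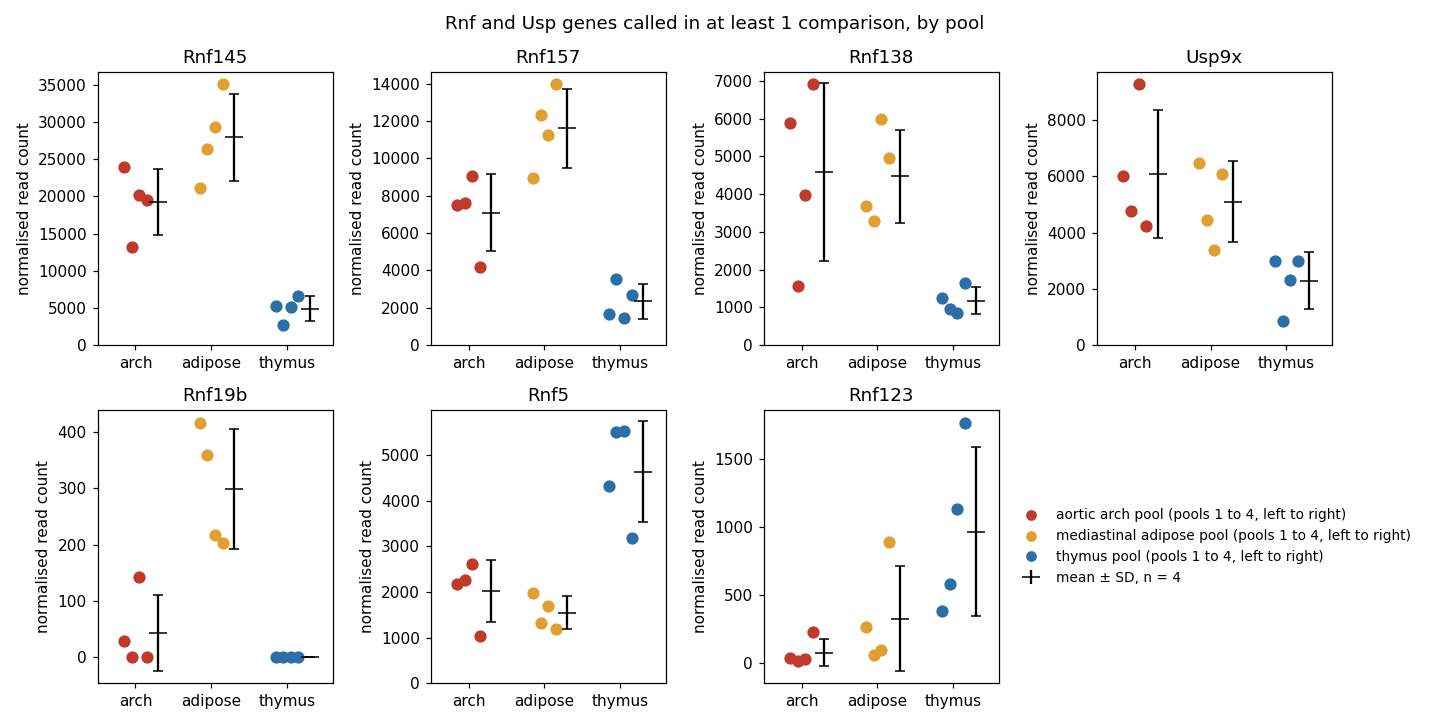
Normalised read count in each of the 12 pools for the 7 genes called in at least 1 comparison; dots are pools 1 to 4 from left to right within arch, adipose tissue and thymus, and bars give the mean ± SD (n = 4). Rnf145, Rnf157 and Usp9x have no arch or adipose pool within the range of thymus, Rnf138 has 1 arch pool below the highest thymus pool, and Rnf19b lies at 0 in all 4 thymus pools.

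Rnf157 had no place in the groups by role; its product is a cytosolic ligase known mainly from survival and dendrite growth of cultured neurons. Its normalised read count was 7516, 7633, 9052 and 4178 in the arch pools and 8931, 12301, 11227 and 13997 in the adipose pools, against 1682, 3524, 1449 and 2704 in the thymus pools. All 8 pools from outside the thymus exceeded the highest thymus pool, with arch pool 4 the nearest to it. The log2 change was 1.63 ± 0.31 in arch (limma adjusted p = 0.00287) and 2.37 ± 0.31 in adipose tissue (limma adjusted p = 0.000106), each against thymus. Both calls held in all 12 fits without 1 pool and in the 12 other alternatives. The difference between arch and adipose tissue was −0.75 ± 0.31 with an adjusted p of 0.426, so an order of these 2 tissues was not shown.

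Of the other 18 genes without a role group 14 were tested and none was called. Usp40, a protease with few known substrates and chosen after its values were seen, was at 29.6, 0, 42.0 and 32.2 in the adipose pools, against 476, 185, 546 and 849.7 in the thymus pools. These did not overlap, yet the change of −3.48 ± 1.24 had a limma adjusted p of 0.184. In arch it had no read in pools 1, 2 and 3 and 1107 in pool 4, the pool with the highest fibroblast markers; their part in that value was not tested. Rnf141, also chosen after its values were seen, stood at 191, 492, 568 and 453 in the adipose pools, against 145, 29.9, 0 and 42.9 in the thymus pools, without overlap and with a limma adjusted p of 0.279 for a change of 2.87 ± 1.17. Usp40 without its thymus pools and Rnf141 without its adipose pools would not have passed the filter of at least 100 in at least 4 pools.

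Enzymes of chromatin and DNA damage made up 24 genes, of which 23 were tested and 1 was called. That is 4.35% in arch and in adipose tissue, each against thymus, beside 6.57% and 2.84% of all tested genes. Rnf138 encodes a ligase that takes part in the repair of DNA double-strand breaks in human cells and is also known as a partner of Nemo-like kinase. It had 5880.3, 1575, 3977 and 6906 normalised reads in the arch pools and 3681, 3289, 5983 and 4956 in the adipose pools, against 1239, 949, 858 and 1653 in the thymus pools. Arch pool 2 lay below the highest thymus pool; the other 7 pools from outside the thymus lay above all thymus pools. The log2 change was 1.80 ± 0.42 in arch (limma adjusted p = 0.0128) and 1.92 ± 0.42 in adipose tissue (limma adjusted p = 0.0131), each against thymus. The arch call held in all 12 fits without 1 pool. The adipose call was lost without adipose pool 3 (adjusted p = 0.0631) or adipose pool 4 (0.0527).

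The other 22 tested chromatin genes were not called. The group's median log2 change was 0.15 in arch and 0.24 in adipose tissue, each against thymus, beside −0.20 and −0.01 for all tested genes. Usp22, the histone H2B protease of the SAGA complex, had 4674, 2800.0, 9056 and 6219 normalised reads in the arch pools, against 2504, 3253, 2719 and 3773 in the thymus pools. Its change of 0.78 ± 0.35 had a limma adjusted p of 0.189, and arch pool 2 lay within the thymus range. Usp7, which stabilises the p53 ligase Mdm2, averaged 2835 ± 807 in arch and 2374 ± 1152 in adipose tissue, against 3294 ± 1474 in thymus, with all 3 ranges overlapping. Rnf2, the catalytic subunit of Polycomb complex 1 and an example chosen after its values were seen, averaged 4496 ± 777 in arch and 4558 ± 1266 in adipose tissue, against 4506 ± 1472 in thymus. Usp44, a histone H2B protease chosen after its values were seen, had 152, 578, 552 and 189 in the adipose pools, against 0, 0.748, 0 and 0 in the thymus pools, where 0.748 stood for 1 read. All 4 adipose pools were above thymus, and the fitted change of 4.04 ± 1.21 had a limma adjusted p of 0.0895 and a DESeq2 adjusted p of 5.526e-06. In arch Usp44 was at 907, 0, 345 and 3.11 in pools 1 to 4, called by edgeR (adjusted p = 0.0414) and DESeq2 (6.606e-06) but not by limma (0.231).

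RING-between-RING ligases, which pass ubiquitin through a cysteine of their own before it reaches the target, numbered 6, all tested. Rnf19b is a member known from the killing functions of natural killer cells and macrophages. It had 417, 360.2, 216 and 202 normalised reads in the adipose pools, against no read in any of the 4 thymus pools. Measured against 3 reads per pool, the limit that counting error sets for a count of 0, the adipose mean was at least 110.86-fold higher. This limit covers counting error only, not differences between libraries. The fitted log2 change of 3.93 ± 0.94 depends on the value of 20 added before the logarithm and had a limma adjusted p of 0.0240. In arch pools 1 to 4 Rnf19b was at 28.5, 0, 143 and 0, and that tissue was not called against thymus (limma adjusted p = 0.529), although DESeq2 on the recovered reads called it (adjusted p = 0.00394). No arch pool reached the lowest adipose pool, but the difference of −2.86 ± 0.94 had a limma adjusted p of 0.341.

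The adipose call of Rnf19b was lost without any 1 of the 4 thymus pools or adipose pool 1, 3 or 4 (adjusted p 0.0504 to 0.0689) and with edgeR on the recovered reads (adjusted p = 0.0851). Of the 7 listed markers of natural killer and innate lymphoid cells 4 were measured, and they summed to 113 to 201 CPM in adipose tissue, against 187 to 338 CPM in thymus. They did not move together, and in thymus the sum came from Gata3 and Gzma alone. Gata3 had 1416, 7.26, 870 and 965 normalised reads in the adipose pools, against 4763, 1820, 2489 and 2644 in the thymus pools. Gzma had 817, 3127, 1132 and 1979, against 1849, 1892, 1644 and 1786. Rora had 956, 372, 317 and 1107 in the adipose pools, against no read in the thymus pools, as Rnf19b did. Nkg7 had reads only in arch pool 2 and adipose pool 1, at 774 and 80.2. Their part in the Rnf19b values was not tested. The 7 measured macrophage markers summed to 250 CPM in adipose pool 1, where Rnf19b was highest, and to 3.82 CPM in adipose pool 3, where it was at 216. They had no read in adipose pools 2 and 4, where Rnf19b was at 360.2 and 202. A part of macrophages in the Rnf19b values was not tested either. The other 5 genes, Rnf14, Rnf144a, Rnf19a, Rnf216 and Rnf31, were not called in any comparison. The group's median log2 change was 0.25 in arch and −0.08 in adipose tissue, each against thymus. Its share called was 0% and 16.7% in the same comparisons, the latter from Rnf19b alone, beside 6.57% and 2.84% of all tested genes.

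A promoter of each of Rnf145, Rnf157 and Rnf19b is shown because these genes were called higher outside the thymus and have a RefSeq entry. Each runs from 250 bases before to 50 after a RefSeq start on GRCm38.p6, 5′ to 3′ on the strand of the gene. They lie at chr11:44518706-44519005 (plus strand, Rnf145), chr11:116412983-116413282 (minus strand, Rnf157) and chr4:129057894-129058193 (plus strand, Rnf19b). Capitals mark an E box in Rnf145, CCAAT boxes in Rnf157, a TATA box in Rnf19b and GC boxes in all 3, on either strand.
Rnf145: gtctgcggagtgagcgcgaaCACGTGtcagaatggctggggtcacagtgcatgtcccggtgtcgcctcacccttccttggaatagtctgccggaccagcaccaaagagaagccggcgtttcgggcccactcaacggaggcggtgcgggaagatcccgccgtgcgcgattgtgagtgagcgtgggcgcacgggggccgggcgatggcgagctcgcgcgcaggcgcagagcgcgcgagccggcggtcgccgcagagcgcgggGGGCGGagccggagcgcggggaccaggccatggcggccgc
Rnf157: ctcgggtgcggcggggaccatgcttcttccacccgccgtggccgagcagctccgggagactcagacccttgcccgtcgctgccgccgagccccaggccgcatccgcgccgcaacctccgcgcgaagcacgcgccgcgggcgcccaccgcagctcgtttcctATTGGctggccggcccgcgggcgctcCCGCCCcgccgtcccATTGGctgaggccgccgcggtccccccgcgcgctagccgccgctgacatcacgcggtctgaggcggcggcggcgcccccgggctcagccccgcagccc
Rnf19b: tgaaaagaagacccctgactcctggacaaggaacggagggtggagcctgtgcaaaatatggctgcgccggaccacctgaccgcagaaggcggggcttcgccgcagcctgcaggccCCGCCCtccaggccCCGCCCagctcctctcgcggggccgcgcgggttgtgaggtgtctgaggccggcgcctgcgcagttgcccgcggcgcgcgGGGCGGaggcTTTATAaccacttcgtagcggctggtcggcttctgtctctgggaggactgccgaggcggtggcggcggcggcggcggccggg

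Bases G and C made up 71.7% of the Rnf145, 78.3% of the Rnf157 and 71.3% of the Rnf19b window. RefSeq promoters were found for 78 of the 103 genes, 94 windows in all, with a median G and C content of 63.2%, beside 61.0% for the 8445 windows of tested genes and 52.7% for all 32851 windows. The GC box, GGGCGG on either strand, stood in 76.6% of the 94 windows, in 64.7% of those of tested genes and in 35.7% of all windows. The CCAAT box, CCAAT on either strand, stood in 30.9%, 38.8% and 37.4% of the same sets. The E box, CACGTG, was in 8.51% of the 94 windows, against 10.5% of those of tested genes. The TATA box, TATAAA on either strand, was in 10.6%, against 6.62%. The cAMP response element, TGACGTCA, was in 1 of the 94, that of Rnf7, against 3.51% of the windows of tested genes. Rnf145 has 3 RefSeq windows, and the one shown starts nearest to the annotated gene start; the other two hold GC boxes and no E box. In the 3 windows shown no motif overlapped another, and a match describes letters only.

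Enzymes of receptor signalling and membrane traffic numbered 22, of which 20 were tested. Usp9x, an X-linked protease with many substrates that mouse lymphocytes need for full antigen receptor signalling, was called. It had 5993, 4752, 9287 and 4245 normalised reads in the arch pools and 6477, 4461, 3384 and 6086 in the adipose pools, against 2996, 849.7, 2330.5 and 2991 in the thymus pools. Neither outside tissue overlapped thymus, whose pool 2 was far below the others. The log2 change was 1.48 ± 0.39 in arch against thymus (limma adjusted p = 0.0267). It was 1.26 ± 0.39 in adipose tissue against thymus, which did not pass (limma adjusted p = 0.106) but did so with DESeq2 on the recovered reads (adjusted p = 0.0355). The arch call was lost without thymus pool 2 (1.07, adjusted p = 0.0757) or arch pool 3 (1.26, adjusted p = 0.0770) and in 4 of 12 other alternatives: values scaled to equal totals (adjusted p = 0.0504), only the 8 pools of the 2 tissues (0.0555), edgeR (0.0562) and no filter on low values (0.0680). A difference of 0.23 ± 0.39 between arch and adipose tissue had a limma adjusted p of 0.871.

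Usp8, an endosomal protease that thymocytes of mice need to mature, stood at 32.6, 613, 848 and 0 in the arch pools and 2277, 362, 290.0 and 484 in the adipose pools, against 1091, 2311, 734 and 2575 in the thymus pools. The arch change of −3.28 ± 1.09 had a limma adjusted p of 0.0796, and arch pool 3 lay above thymus pool 3. It passed without arch pool 2 (adjusted p = 0.0477) or arch pool 3 (0.0331). Usp15, which restrains T cell activation in mice by stabilising Mdm2, was at 2719.9, 3831, 4071 and 5991 in the arch pools and 3180.3, 3243, 5050.2 and 4539.7 in the adipose pools, against 2848, 4139, 75.7 and 1203 in the thymus pools. Its changes of 1.88 ± 0.77 and 1.86 ± 0.77 did not pass (limma adjusted p = 0.151 and 0.295) and fell to 0.72 and 0.69 without thymus pool 3.

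Other genes of this group with a T cell background were not called. Usp18, which removes the ubiquitin-like protein ISG15 rather than ubiquitin, had 374, 45.7, 79.1 and 193 normalised reads in the arch pools and 227, 411, 34.4 and 92.1 in the adipose pools, against 1042, 209, 267 and 369.6 in the thymus pools. Thymus pool 1 was the highest of all, and the tissues overlapped. Usp4, a relative of Usp15, averaged 2225 ± 1143 in arch and 2365 ± 869 in adipose tissue, against 2285 ± 823 in thymus. Rnf114, a zinc finger ligase linked to psoriasis in human genetics, was among the 5 highest genes per length, at 101 ± 19.4 CPM per kilobase in arch and 81.6 ± 17.3 in adipose tissue, against 117 ± 23.8 in thymus. Its relative Rnf166, chosen after its values were seen, missed the limma threshold most narrowly in arch. It had 1655, 620.1, 1216 and 2019.7 normalised reads in the arch pools, against 2177, 3178, 4718 and 3249 in the thymus pools, without overlap, and its change of −1.33 ± 0.40 had a limma adjusted p of 0.0535 and a DESeq2 adjusted p of 0.0129.

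A mixed group of 10 genes covers the recycling of ubiquitin chains, the proteasome, ribosomes, partners of cullins and a few other ligases, and all 10 were tested. Rnf123, the catalytic subunit of the complex that marks the cell cycle inhibitor p27 for degradation, was called. It had 33.4, 13.3, 24.2 and 224 normalised reads in the arch pools and 259, 56.6, 92.3 and 889 in the adipose pools, against 377, 579, 1130.3 and 1769 in the thymus pools. Arch and thymus did not overlap, and the highest arch pool was the one with the highest fibroblast markers. The log2 change was −3.66 ± 1.05 in arch against thymus (limma adjusted p = 0.0439) and −1.95 ± 1.05 in adipose tissue against thymus (limma adjusted p = 0.471). The arch call was lost in 9 of 12 fits without 1 pool, namely without any 1 thymus pool, adipose pool 1 or 3 or arch pool 1, 2 or 3, with adjusted p of 0.0548 to 0.134. It was also lost in 6 of 12 other alternatives (adjusted p 0.0583 to 0.128, the highest with edgeR), and 18.0% of its exon length overlaps genes on the opposite strand, among them Gmppb and Mst1, so its reads are uncertain.

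Within the same mixed group Rnf7 and Rnf187 were abundant per length. Rnf7, the RING subunit of ligases built on cullin 5, stood at 106 ± 33.3 CPM per kilobase in arch and 112 ± 16.0 in adipose tissue, against 92.4 ± 25.9 in thymus, and 27.4% of its 50-base windows recur in other genes. Rnf187, known as a coactivator of c-Jun, had 7226, 1535, 4401 and 2785 normalised reads in the arch pools and 6798, 9181, 6986 and 9961 in the adipose pools, against 6450.15, 5603, 6578 and 7856 in the thymus pools. Arch pool 1 lay inside the ranges of both other tissues, and arch pools 2, 3 and 4 lay below them. The changes of −0.94 ± 0.35 against thymus and −1.24 ± 0.35 against adipose tissue did not pass (limma adjusted p = 0.118 and 0.266). The first passed without arch pool 1 (−1.30, adjusted p = 0.0208), and both came to less without arch pools 2 and 4 and adipose pool 1 (−0.22 and −0.61). The group's median log2 change was −0.33 in arch and 0.22 in adipose tissue, each against thymus.

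Of the 4 genes with a Usp symbol that were first known for other functions Usp39 and Usp53 were tested. Usp39, a splicing factor of the tri-snRNP, had 1648, 4965, 4048 and 805 normalised reads in the arch pools and 2621, 3557, 1674 and 2129 in the adipose pools, against 2973, 1773, 2.91 and 2239.65 in the thymus pools. Thymus pool 3 was far below the other 11, and the other thymus pools lay inside the arch range. The change of 1.66 ± 1.08 in arch against thymus had a limma adjusted p of 0.379 and came to 0.00 without thymus pool 3.

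**Figure D3:**
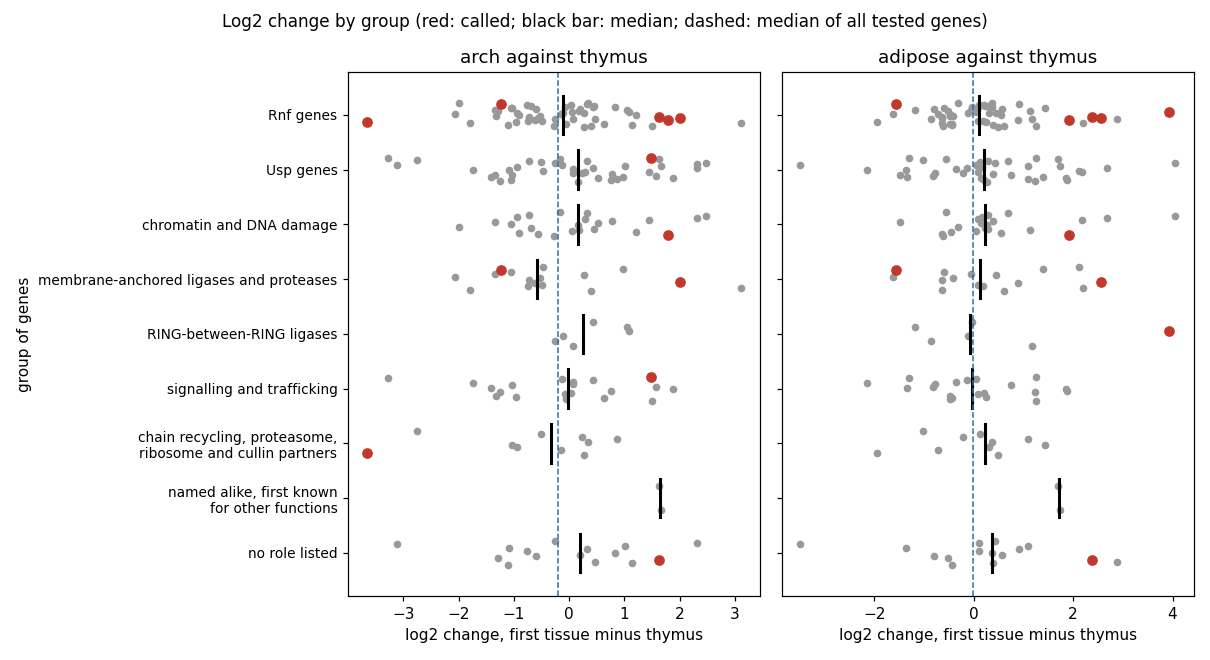
Log2 change of each tested gene in arch against thymus and in adipose tissue against thymus, by symbol and by role group; red dots are called genes, black bars group medians and the dashed line the median of all 9106 tested genes. Medians of the groups of 6 or more genes lie between −0.58 and 0.36, beside dashed lines at −0.20 and −0.01. Red dots make up 12.5% of the membrane-anchored group in each panel, against 6.57% and 2.84% of all tested genes. They make up 16.7% of the 6 RING-between-RING ligases in adipose tissue and 0% in arch. The other role groups have 0% to 10% in arch and 0% to 6.67% in adipose tissue, and no role group holds more than 2 red dots.

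Across all 92 genes the median log2 change was −0.02 in arch against thymus, 0.17 in adipose tissue against thymus and −0.18 in arch against adipose tissue, beside −0.20, −0.01 and −0.17 for all tested genes. The 53 Rnf genes had medians of −0.11, 0.12 and −0.21 and the 39 Usp genes of 0.15, 0.21 and −0.08 in the same comparisons. Of the called genes in arch 5 were Rnf genes (9.43% of those tested) and 1 was a Usp gene (2.56%), against 6.57% of all tested genes. In adipose tissue all 5 were Rnf genes (9.43%), against 2.84% of all tested genes; the difference between Rnf and Usp genes was not tested. Arch and thymus pools did not overlap for 8 of the 92 genes (8.7%), against 13.2% of all tested genes. They were 4 with higher values in arch, against 6.6% of all tested genes, and 4 with lower values, against 6.64%; those not called were Rnf113a2 on the higher side and Rnf166 and Rnf170 on the lower. Adipose and thymus pools did not overlap for 12 (13%), against 10.5% of all tested genes, 8 of them with higher values in adipose tissue (5.48% of all tested genes) and 4 with lower values (4.99%). Arch and adipose pools did not overlap for 3 genes (3.26%), against 5.35% of all tested genes. All 3, Rnf126, Rnf14 and Rnf19b, had lower values in arch, as had 2.89% of all tested genes, while 2.46% had higher values.

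Both Rnf126 and Rnf14 were chosen after their values were seen. Rnf126, a cytosolic ligase for proteins that fail to reach their membrane, had 883, 238, 913 and 718 normalised reads in the arch pools, against 1440.0, 1808, 1230.2 and 1392 in the adipose pools. Its change of −1.22 ± 0.53 had a limma adjusted p of 0.456. Rnf14, known as a coactivator of the androgen receptor in human cells, had 1383, 765, 1139.5 and 2087 in the arch pools, against 2322, 3353, 2917 and 2542 in the adipose pools. Thymus pool 3 held 83.0 for Rnf14, against 2078 to 3287 in the other thymus pools.

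**Figure D4:**
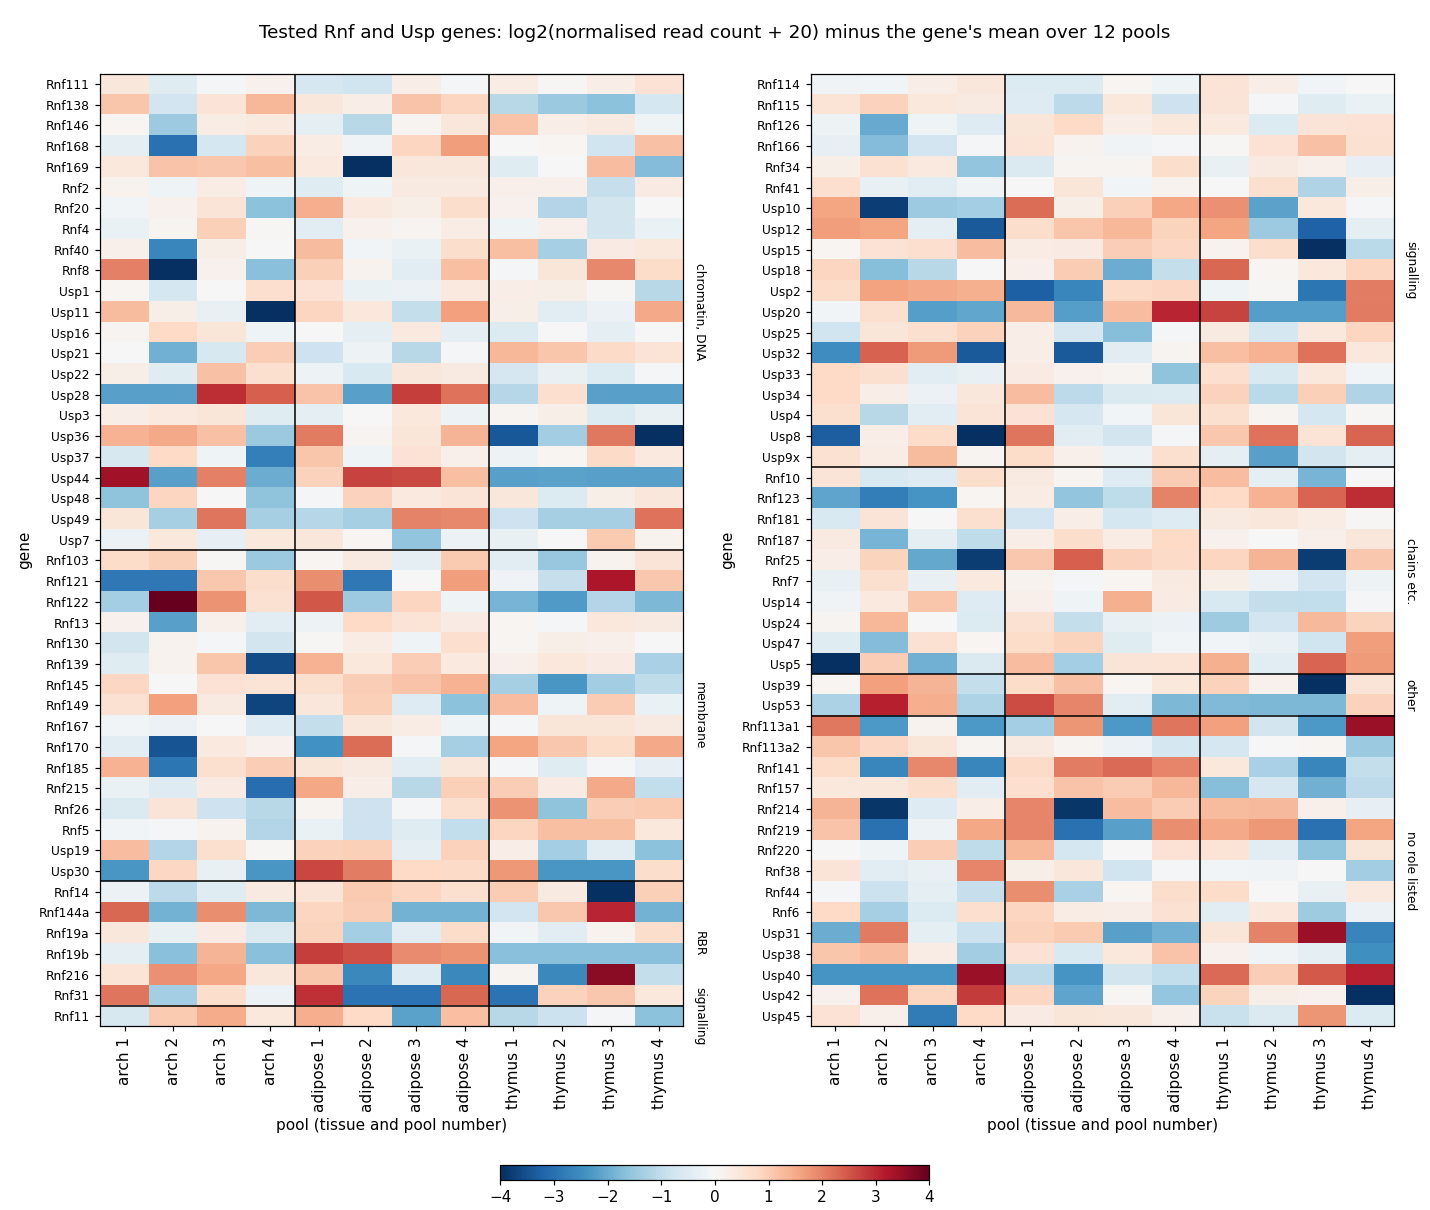
Log2(normalised read count + 20) of each of the 92 tested genes in each of the 12 pools, minus the gene's own mean over the pools (red above, blue below, colours ending at ±4), ordered by role group with pools of arch, adipose tissue and thymus side by side. Single dark cells, such as Usp39 in thymus pool 3, stand beside rows in which a whole tissue differs, such as Rnf145, Rnf157 and Rnf19b.

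Pools of 1 tissue differed widely for many of these genes. The SD of the log2 value over the 4 pools of a tissue had a median over the 92 genes of 1.02 for arch and 0.67 for adipose tissue, against 0.80 for thymus, beside 1.04, 0.73 and 0.74 for all tested genes. In arch it was lowest for Rnf167, at 0.22, and highest for Rnf8, a ligase recruited to DNA breaks, at 3.18. Rnf8, chosen for this spread, had 3458, 0, 961 and 252 normalised reads in the arch pools, against 796, 1198, 3226 and 1426 in the thymus pools. In adipose tissue the SD was highest for Rnf31, the catalytic subunit of the complex that makes linear ubiquitin chains, at 3.22, with 1143, 0, 0 and 743 in pools 1 to 4. In thymus it was highest for Usp39, at 3.34.

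Genes of the ubiquitin system with other names give the setting. Among 157 listed genes of 7 lists, 146 were tested. In arch against thymus 8 were called higher and 2 lower (6.85%, against 6.57% of all tested genes), in adipose tissue against thymus 3 higher and 1 lower (2.74%, against 2.84%), and in arch against adipose tissue none by limma or edgeR and 3 by DESeq2. No E1 enzyme (9 tested), HECT ligase (21) or cullin and cullin assembly gene (14) was called by limma. Ubb, a polyubiquitin gene, averaged 21916 ± 3042 normalised reads in arch and 19262 ± 3129 in adipose tissue, against 14078 ± 1199.99 in thymus. It was called higher in arch by 0.63 ± 0.18 (limma adjusted p = 0.0375) and not called in adipose tissue.

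Among 30 tested E2 enzymes 3 were called higher in arch (10%, against 3.99% of all tested genes) and 1 in adipose tissue (3.33%, against 2.17%). Ube2b, which serves in DNA damage tolerance, averaged 17038 ± 6529 in arch and 13478 ± 447 in adipose tissue, against 4962 ± 779.8 in thymus, with changes of 1.72 ± 0.23 and 1.45 ± 0.23 (limma adjusted p = 0.000103 and 0.000877). Ube2j1, the E2 enzyme anchored in the endoplasmic reticulum, averaged 5912 ± 1638 in arch and 2911 ± 1286.5 in adipose tissue, against 1419 ± 364 in thymus. Its arch change was 2.04 ± 0.36 (limma adjusted p = 0.00162). Ube2s, which extends chains for the anaphase-promoting complex, averaged 21210.4 ± 6167 in arch and 14019 ± 1828 in adipose tissue, against 9421 ± 2328 in thymus. Its arch change was 1.15 ± 0.22 (limma adjusted p = 0.00315), and neither gene was called in adipose tissue.

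Among 40 tested RING ligases with other names 1 was called higher and 2 lower in arch (7.5%, against 6.57% of all tested genes). None was called in adipose tissue, against 2.84% of all tested genes. Pja1 averaged 5203 ± 982 in arch and 2755 ± 1432 in adipose tissue, against 1130.1 ± 252 in thymus. Znrf1 averaged 2459 ± 384 in arch and 4833 ± 1672 in adipose tissue, against 6768 ± 878 in thymus. Rbck1, a partner of Rnf31 in the linear chain complex, averaged 734 ± 495 in arch and 2367 ± 1664 in adipose tissue, against 4174 ± 2055 in thymus. Their changes in arch against thymus were 2.19 ± 0.42, −1.46 ± 0.28 and −2.74 ± 0.79 (limma adjusted p = 0.00273, 0.00291 and 0.0455). Among 28 tested deubiquitinases with other names 7.14% were called in arch and 7.14% in adipose tissue, against 6.57% and 2.84% of all tested genes. Tnfaip3, the NF-kB inhibitor A20, was called higher in both outside tissues. Otud6b averaged 2816 ± 361 in arch and 2150 ± 663 in adipose tissue, against 893 ± 859 in thymus. It was called in arch alone, by 2.05 ± 0.52 (limma adjusted p = 0.0221). Stambpl1, an endosomal protease, averaged 1554 ± 851 in arch and 742 ± 696 in adipose tissue, against 2776 ± 109 in thymus. It was called in adipose tissue alone (−2.39 ± 0.63, limma adjusted p = 0.0451), although all arch pools also lay below every thymus pool.

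**Figure D5:**
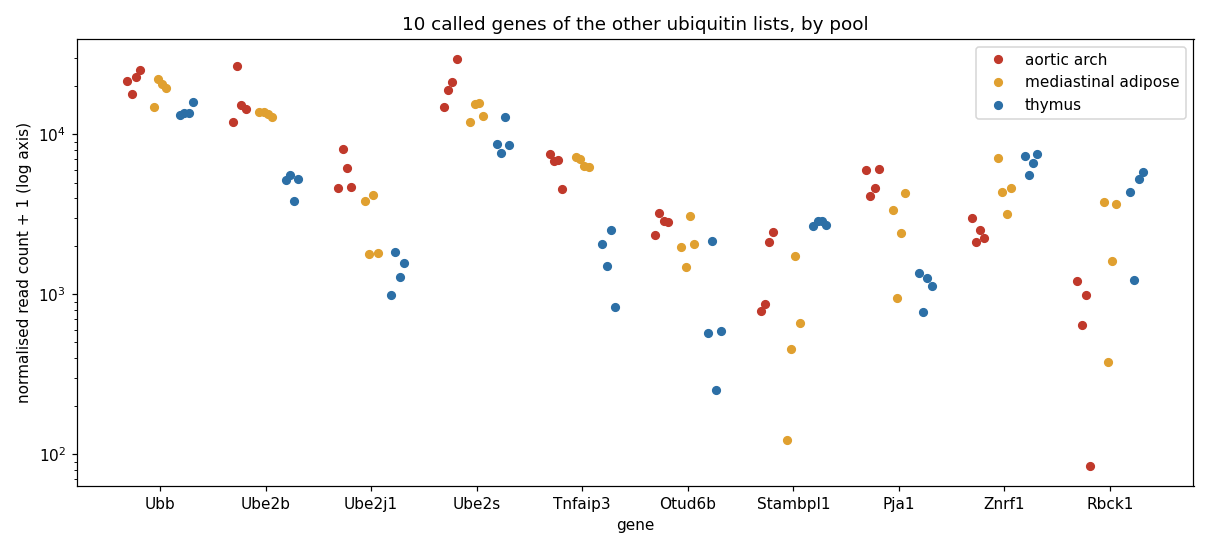
Normalised read count (log axis, 1 added) in each of the 12 pools for 10 called genes of the other ubiquitin lists; each dot is 1 pool of arch, adipose tissue or thymus from left to right. Ube2b and Tnfaip3 lie higher in all arch and adipose pools than in any thymus pool. Znrf1 lies lower in all arch pools, and Stambpl1 in all arch and adipose pools, than in any thymus pool.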

How the data were processed

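Per the labels' protocols, each sort took 400 live cells with CD4 and CD8b but no T-cell receptor, the lysate of 200 cells went into a library, polyadenylated RNA was amplified over 18 cycles, and 50-base single-end reads were sequenced; the submitters' processing notes name FastQC 0.11.5, STAR 2.6.0c and GRCm38. The sources used here name no counting tool or gene annotation and do not say whether strand was used. The authors deposited 1 table of normalised read counts (a signal, with libraries of a pool combined) for 12 pools; 0 further per-sample columns were left unused. In each column all values were whole multiples of 1 step (100% of 120369 values above 0 within 0.01), which gave back 11577253 to 34599519 whole reads per pool. Lower bounds for a gene with no read cover counting error only, while each SE and SD reflects the spread between pools.

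Values were tested with limma 3.58.1 (R 4.3.3) with an intensity trend on log2(value + 20), on genes with at least 100 in at least 4 pools, all 12 pools in 1 fit with tissue as the only term, and p-values adjusted with Benjamini-Hochberg over all 9106 genes. The added 20 understates the change of low genes. Alternatives were edgeR 4.0.16 and DESeq2 1.42.0 on the recovered reads, other scalings, other pseudocounts and filters, fewer pools and a replicate block. The fit was tested on simulated data. The labels number 4 pools per tissue and do not say whether same-numbered pools of different tissues share mice. Exon lengths, overlaps and coordinates came from the GENCODE annotation of GRCm38, promoters from RefSeq (GRCm38.p6).

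The genes and all lists were chosen with earlier results of these data known. The text names every called gene, the first gene of each role group by p, the 5 highest per length, genes at 0 in a whole tissue and a few T cell genes, and says where it adds others. For lower bounds a pool with no read was set to 3 reads. One further gene is not reported here.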

Additional observations from a re-analysis of the deposited data

Results flagged for a closer look

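Usp39 in thymus pool 3 was at 2.91 normalised reads against 1773 to 2973 in the other 3 thymus pools. On the scale of log2(value + 20), on which all groups were examined, it lay farther from its group than Dixon's 95% critical value allows. The gap made up 0.895 of the group's range on that scale. This was the only group flagged of 53 groups of 4 pools examined, and chance alone gives about 1 in 20. The value stood for 2 reads of 13473516 in that pool, and its cause was not tested.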

How the results depend on the processing

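Rnf145 and Rnf157 were called against thymus under all alternatives run, in arch and in adipose tissue. For 27 log2 changes of named genes 645 alternative values were computed. Of these 581 kept direction and side of the threshold, 53 lost a call, 5 gained one and 6 turned direction. Only the 6 calls in arch and the 5 in adipose tissue could be lost, so all 53 losses fell on them. The other changes counted as kept when they stayed not called, so the 581 does not measure how firm the calls were. Counts of Rnf and Usp genes in arch against thymus were 10 with DESeq2 (10.9%, against 11.1% of all tested genes). They were 3 with no filter on low values (2.91%, against 3.06%) and with only the 8 pools of the 2 tissues (3.26%, against 4.63%). Without 1 pool they ranged over 3 to 7. In adipose tissue against thymus DESeq2 called 8, and the range without 1 pool was 2 to 6; in arch against adipose tissue it was 0 to 0. The 3 pools with the fewest reads per library were arch pools 2 and 4 and thymus pool 3, so 2 of them were also among the 3 marker pools. All genes called in arch against thymus numbered 365 with edgeR, 1007 with DESeq2, 308 without the 3 pools with the fewest reads per library and 345 without arch pools 2 and 4 and adipose pool 1 (404 to 620 without 1 pool). In adipose tissue against thymus DESeq2 called 539 genes (169 to 317 without 1 pool). In arch against adipose tissue the count was 8 with edgeR, 168 with DESeq2, 9 with a pseudocount of 5, 2 with no filter, and 0 without the 3 pools with the fewest reads per library and without the 3 pools with the highest markers (2 to 17 without 1 pool). Of the other ubiquitin lists DESeq2 called 8 genes in adipose tissue against thymus and 3 in arch against adipose tissue; without 1 pool the ranges were 7 to 12 in arch against thymus, 2 to 5 in adipose tissue against thymus and 0 in arch against adipose tissue. Rnf138 in arch against adipose tissue, not called, turned to 0.0039 with edgeR, 0.041 with DESeq2, 0.15 without the 3 pools with the fewest reads per library and 0.071 without the 3 marker pools, with −0.38 to 0.32 without 1 pool. The causes were not tested. Scaling to equal totals moved the median of all genes by −0.14 in arch against thymus and gave 296 higher and 343 lower genes, against 363 and 235, and 3 higher and 3 lower Rnf and Usp genes, against 4 and 2. Same-numbered pools correlated at −0.0316 to 0.0756 (median 0.0289) in their deviations from the tissue means, and differently numbered pools at −0.0875 to 0.0731 (median −0.0036). The labels do not say whether same-numbered pools share mice, so they were taken to share only a number. With a replicate block 6, 5 and 0 Rnf and Usp genes were called in the 3 comparisons. With at least 500 in at least 4 pools, 71 of the 103 genes would be tested, and Rnf19b would not.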
